A study of Rattus norvegicus with 24 samples.

Results

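Gene expression in the quadriceps femoris muscle was compared between rats of catgut group 1, which trained after acupoint catgut embedding, and the untrained control rats, with 6 libraries in each group, 12 of the 24 in the series. Each library came from poly(A) mRNA of 1 Sprague-Dawley rat, and the members of the comparison were taken from the treatment that the label of each library gives. All rats were 6 weeks old when obtained. After a period of adaptive feeding they had a short habituation to the treadmill, and each group held males and females in equal number. The control rats were then fed normally, had no thread placed and did not train. In catgut group 1 an absorbable collagen thread was placed under ether at the 4 acupoints Yang Wa, Qian Shen, Xie Qi and Han Gou of the hind limb and at Bai Hui and Qiang Feng. After recovery these rats followed 7 weeks of treadmill training with an electric stimulus and ran to exhaustion before the tissue was taken. The treadmill group, which trained and ran to exhaustion without a thread, is given beside the results as the trained group without catgut. The thread, the ether, the training and the final run therefore cannot be told apart between catgut group 1 and the control group.

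Hard exercise is known to raise heat shock proteins, the chaperones that refold damaged protein, and immediate-early genes, which are transcribed within minutes of a stimulus and encode transcription factors such as Fos, Jun, Egr and Nr4a. Feedback inhibitors of the MAPK pathway, among them the Dusp phosphatases and the Sprouty proteins, are induced by the same signals and limit them. Skeletal muscle also follows the circadian clock, so that Dbp, Per2 and Arntl differ strongly between times of day.

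The table held 21067 genes, of which 14772 with a mean of at least 0.1 FPKM over all libraries of the series were tested. FPKM, the number of fragments scaled to transcript length and to the mapped fragments of the library, is a level per length. Total counts ranged from 61682752 to 78278080 in the control group and from 45945938 to 66224903 in catgut group 1, so that the catgut libraries were on average shallower. Muscle markers were at like levels, with a summed FPKM of 1e+05 to 129000 in the control group and 97500 to 132000 in catgut group 1, and 0 of the 11 tested members met the criterion given below. Some libraries stood apart before any comparison. Control replicate 2 carried liver transcripts, with a summed FPKM of 310 where the other control libraries had 15.7 to 20.7, and control replicate 4 had interferon-stimulated genes at 1140 where the others had 162 to 311. Control replicates 1 and 2 had clock gene levels unlike those of the other control libraries. Values without these libraries stand beside the list counts and gene calls that moved most with them. The Y-linked Eif2s3y was above 0 in replicates 4 to 6 and at 0 in replicates 1 to 3 of both groups, so that sex was balanced as far as this gene shows it. Fewer cells of a type and less RNA per cell cannot be told apart in such bulk libraries.

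Genes of the heat shock and immediate-early responses were those most clearly higher in catgut group 1. At an adjusted p under 0.05 in edgeR's quasi-likelihood test, 3 genes rose, 0.0203% of those tested, and 0 fell. These were Hspa1b, which encodes an inducible Hsp70 chaperone, Dnajb1, an Hsp40 co-chaperone of Hsp70, and Arc, an immediate-early gene best known from synapses. At an adjusted p under 0.1 there were 20 genes, 17 of them higher and 3 lower. Without adjustment 1454 genes had p under 0.05, 706 higher and 748 lower. The study's criterion for differentially expressed genes, which asks for an unadjusted p under 0.05 and for means of FPKM that differ by a factor of more than 1.5, was met by 682 genes or 4.62%. Of these, 342 (2.32%) were higher and 340 (2.3%) lower in catgut group 1. A fold of 4 or more was found in 59 of the higher and 133 of the lower genes. A mean of at least 1 FPKM in either group was reached by 248 of the higher but only 173 of the lower genes. All 6 libraries of one group lay beyond all 6 of the other for 58 genes, 0.393% of those tested, 47 of them higher and 11 lower. If the group made no difference, a gene would be apart in this way with a probability of 0.00216.

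The higher and lower genes differed in how much they rested on single libraries. With each library left out in turn, 255 of the 682 genes kept the criterion in all 12 fits, 47.7% of the higher genes and 27.1% of the lower. Without control replicate 4, 419 genes were higher and 209 lower, and without both control replicates 2 and 4, 478 were higher and 159 lower. Without control replicates 1 and 2 the split was 361 and 431. At an adjusted p under 0.05, the count was 0 without control replicate 5 (1239 genes at an unadjusted p under 0.05), 1 without control replicate 4 and 2 without control replicate 1, control replicate 6 or catgut 1 replicate 4. It was 9 without control replicate 2, 5 without catgut 1 replicate 3 and 12 without catgut 1 replicate 6. In counts analysed by DESeq2, 162 genes passed, 125 higher and 37 lower.

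Hspa1b (ENSRNOG00000050647, chromosome 20, 4877324 to 4879779, minus strand, as the table lists it) had FPKM of 7.34 to 21.1 (median 13.9) in the control libraries and of 127 to 1680 (median 493) in those of catgut group 1. The lowest catgut library was thus several times above the highest control library. The means were 14.0 ± 6.46 FPKM and 597 ± 554 FPKM (SD, n = 6 each), which is 5.42 on the log2 scale (SE 0.613, adjusted p = 0.0114; exact permutation p = 0.00216). Its adjusted p was under 0.05 in 11 of the 12 fits that left out a library, and its highest value there was 0.0532.

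LOC108348108 (ENSRNOG00000045654, chromosome 20, 2699712 to 2701815, minus strand), described as heat shock 70 kDa protein 1A, is a near-identical copy of Hspa1b, so that the counting may have split reads between them. It was at 0.0233 to 3.76 FPKM in the control libraries and at 33.6 to 404 FPKM in catgut group 1, again without overlap (adjusted p = 0.0816). Control replicate 3 alone held the value of 3.76. The fitted log2 fold change was 8.11 and became 10.87 without that library, so that its size is not well set. The sum of the pair, which does not depend on such a split, was 14.8 ± 5.83 FPKM in the control group and 797 ± 642 FPKM in catgut group 1, a ratio of 54.

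Dnajb1 (chromosome 19, 24747178 to 24750919, plus strand) had 4.19 to 7.62 FPKM (median 5.79) in the control libraries and 18.5 to 168 FPKM (median 52.9) in catgut group 1. No library of one group reached the range of the other. Its mean of 5.74 ± 1.51 FPKM in the control group rose to 64.5 ± 53.7 FPKM, or by 3.50 on the log2 scale (SE 0.460, adjusted p = 0.0199; exact permutation p = 0.00216), and the adjusted p was under 0.05 in 6 of the 12 fits without a library, with a highest value of 0.1. Catgut 1 replicate 5 had the highest Hspa1b, and replicate 6 had the lowest.

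Of the 30 tested heat shock chaperones, 10 were higher by the criterion and 0 lower. Their median log2 fold change was 0.30, where that of all tested genes was -0.01. Besides Hspa1b and Dnajb1 these were Hsp90aa1, the inducible cytosolic Hsp90, the small heat shock proteins Hspb1 and Cryab, the Hsp40 members Dnaja1 and Dnajb4, the nucleotide exchange factors Hsph1 and Bag3, and Hspa1l. Hsp90aa1 had 9.01 to 15.9 FPKM in the control libraries and 15.5 to 96.2 FPKM in catgut group 1 (log2 fold change 1.67, SE 0.342, adjusted p = 0.160). Of the catgut libraries, 5 of 6 were above every control library. Hspb1 had 153 to 286 FPKM (median 184) against 197 to 1270 FPKM (median 423), with 4 of 6 catgut libraries above the control range (log2 fold change 1.36, SE 0.386, adjusted p = 0.311). The constitutive Hspa8, which carries the same function as Hspa1b in unstressed cells, had means of 221 and 271 FPKM and did not meet the criterion (log2 fold change 0.29, SE 0.127, adjusted p = 0.474). Hspa5, the Hsp70 of the endoplasmic reticulum, had 51 and 59.9 FPKM and did not meet it either, and of the 22 genes of the unfolded protein and amino acid stress list 1 was higher and 0 lower. Of the mitochondrial chaperones, Hspa9 and Hspd1 were near equal, with log2 fold changes of 0.01 and 0.08. Hspe1 was at 0.31 and did not meet the criterion. The number of chaperones higher by the criterion was 5 without catgut 1 replicate 5, which had Hsph1 at 70.4 FPKM, and 13 without control replicate 2. Hsph1, Bag3 and Cryab were among those lost without catgut 1 replicate 5. Cryab kept the criterion in only 5 of the 12 fits that left out a library.

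Promoters of the chaperones that met the criterion were searched for the heat shock element, the sequence that heat shock factors bind, here as GAANNTTC on both strands. The promoters span 250 bases before to 50 bases after the start of transcription in RefSeq on GRCr8. Of the 30 chaperones 25 had an entry, and 14 of these held a match, where 8.59% of all 33469 promoters did. Among those higher by the criterion 5 of 6 held one, and among the others 9 of 19. Hspa1b, LOC108348108 and Hsp90aa1 are among the genes for which no promoter is shown. The strings below are the promoters of the 2 chaperones that had the smallest p in their list and an entry, Dnajb1 (chr19:41431092-41431391, minus strand) and Hspb1 (chr12:26432252-26432551, minus strand), and of the immediate-early gene chosen in the same way, Nr4a1 (chr7:134259888-134260187, plus strand). Capitals mark matches to the heat shock element.
Dnajb1: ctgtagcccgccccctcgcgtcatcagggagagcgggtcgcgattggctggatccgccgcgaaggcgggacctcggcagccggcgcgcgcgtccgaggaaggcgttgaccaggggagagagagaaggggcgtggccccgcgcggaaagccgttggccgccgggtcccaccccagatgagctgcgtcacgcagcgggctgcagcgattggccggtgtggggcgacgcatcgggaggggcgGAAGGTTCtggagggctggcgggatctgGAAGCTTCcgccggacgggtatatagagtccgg
Hspb1: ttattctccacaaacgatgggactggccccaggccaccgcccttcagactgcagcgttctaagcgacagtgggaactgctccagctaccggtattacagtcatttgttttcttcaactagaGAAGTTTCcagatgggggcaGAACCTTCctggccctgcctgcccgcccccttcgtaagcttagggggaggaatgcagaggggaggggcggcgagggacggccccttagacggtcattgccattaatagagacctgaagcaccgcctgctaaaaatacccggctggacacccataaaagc
Nr4a1: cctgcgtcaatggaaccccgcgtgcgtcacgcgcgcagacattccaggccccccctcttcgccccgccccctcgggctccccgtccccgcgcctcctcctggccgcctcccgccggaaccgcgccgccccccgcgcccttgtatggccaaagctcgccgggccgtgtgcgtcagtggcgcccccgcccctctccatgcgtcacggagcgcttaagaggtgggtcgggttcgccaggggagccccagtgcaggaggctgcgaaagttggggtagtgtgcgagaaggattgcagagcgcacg
The 2 matches of Dnajb1 began at -11 and 18 from the start site, and those of Hspb1 at -129 and -109. The Nr4a1 window held no match to this motif, nor to the cyclic AMP element TGACGTCA, the CArG box bound by serum response factor, the E-box CACGTG or the D-box TTATGTAA. Of the 31 immediate-early genes 20 had a promoter entry, and 4 held the cyclic AMP element, 5 the CArG box and 2 the heat shock element, where 1.83%, 1.64% and 8.59% of all promoters did. A match shows only that these letters occur in the window.

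The immediate-early list was the list with the largest share of members higher. Of its 31 tested genes, 23 were higher by the criterion and 0 lower, and 30 had a positive fold change. The median log2 fold change was 1.41. This count was 22 to 24 with each library left out in turn and 24 without both control replicates 2 and 4. The list was taken up with earlier results of these libraries known, so its direction is not independent evidence. Arc (chromosome 7, 115907097 to 115910541, minus strand) had 0.639 to 2.14 FPKM (median 1.48) in the control libraries and 6.46 to 29.8 FPKM (median 11.6) in catgut group 1. Every catgut library was above every control library. Its mean of 1.37 ± 0.619 FPKM in the control group rose to 14.8 ± 8.36 FPKM (SD, n = 6), or by 3.45 on the log2 scale (SE 0.420, adjusted p = 0.0128; exact permutation p = 0.00216), and the adjusted p was under 0.05 in 10 of the 12 fits without a library.

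The 3 members of the Nr4a family, orphan nuclear receptors that respond to contraction, were all higher by the criterion. Nr4a1 had 35.1 to 124 FPKM (median 77.3) in the control libraries and 130 to 300 FPKM (median 206) in catgut group 1, without overlap (log2 fold change 1.51, SE 0.298, adjusted p = 0.141; exact permutation p = 0.00216). Nr4a2 and Nr4a3 were far lower in level and had larger fold changes, from a mean of 0.695 to 7.35 FPKM and from 0.263 to 3.35 FPKM. Control replicate 2 had 2.35 FPKM of Nr4a2, above the lowest catgut library at 2.08 FPKM. The zinc finger factor Egr1 had 2.31 to 20.4 FPKM against 17.5 to 78.3 FPKM (log2 fold change 2.24, SE 0.504, adjusted p = 0.224), and 5 of 6 catgut libraries lay above the control range. Egr3 was at 0.0533 to 0.483 FPKM against 0.514 to 3.97 FPKM, so that the groups did not overlap (log2 fold change 2.63, adjusted p = 0.224).

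The AP-1 subunits did not all separate. Junb went from a mean of 18.7 ± 7.24 to 52.9 ± 17.5 FPKM (log2 fold change 1.52, adjusted p = 0.141) and Jun from 54.6 ± 18.8 to 105 ± 39 FPKM (log2 fold change 0.95, adjusted p = 0.31). Atf3, a stress-induced repressor of the same dimer family, had 2.72 and 15.5 FPKM (log2 fold change 2.50, adjusted p = 0.302). Fos did not meet the criterion, with 3.7 to 121 FPKM (median 17.4) in the control libraries and 32.5 to 172 FPKM (median 87.6) in catgut group 1 (log2 fold change 1.43, SE 0.711, adjusted p = 0.541). The highest control value of Fos, 121 FPKM, was that of replicate 2, and without this library the log2 fold change was 2.53 and the gene met the criterion, as it also did in 8 of the 13 alternatives. Csrnp1, a nuclear protein induced by axin, was apart in the groups, at 0.737 to 2.3 against 2.6 to 9.81 FPKM (log2 fold change 2.05, adjusted p = 0.0859). Srf, which encodes the factor that binds the CArG box, had 14.7 to 17 FPKM and 17.8 to 20.6 FPKM. Its groups did not overlap (exact permutation p = 0.00216), but at a ratio of 1.2 it stayed under the fold of the criterion.

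**Figure D1:**
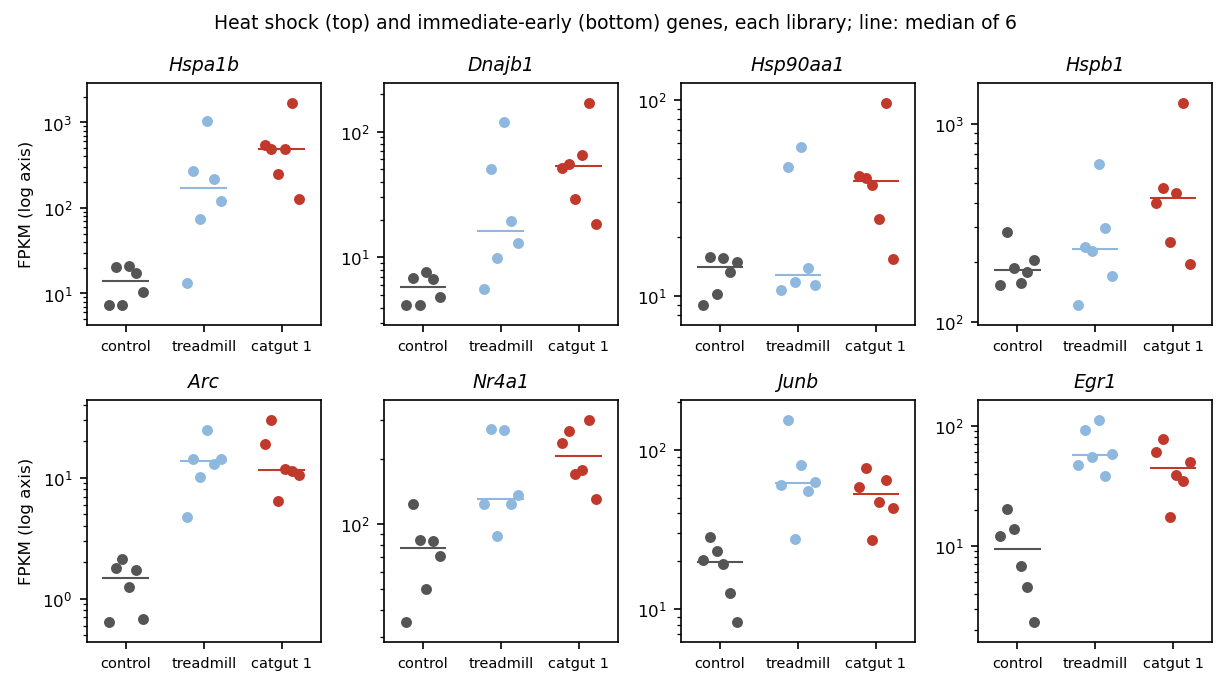
FPKM on a log axis of 4 heat shock genes (top row) and 4 immediate-early genes (bottom row) in each of the 6 libraries of the control, treadmill and catgut 1 groups, with a line at the median. Hspa1b, Dnajb1, Arc and Nr4a1 show every catgut 1 library above every control library, whereas the treadmill libraries of Hspa1b, at 13.2 to 1050 FPKM, reach from the control range into that of catgut group 1.

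Feedback inhibitors of growth factor and MAPK signalling were in part higher as well. Of 14 tested members of this list 5 met the criterion, all higher, namely Spry1, Spry4, Dusp1, Dusp5 and Errfi1, and the median log2 fold change was 0.41. Spry4, which blocks receptor tyrosine kinase signalling, had 1.34 to 2.29 FPKM against 2.53 to 5.74 FPKM (log2 fold change 1.29, SE 0.212, adjusted p = 0.0816). Errfi1, an inhibitor of the EGF receptor, had 8.65 to 26.8 FPKM against 36 to 75.5 FPKM (log2 fold change 1.49, SE 0.265, adjusted p = 0.0921), and Dusp5, a nuclear phosphatase of ERK, had 0.178 to 0.46 against 0.676 to 2.3 FPKM (adjusted p = 0.0998). These 3 genes did not overlap between the groups. For Dusp1, at 29.1 to 155 and 114 to 258 FPKM, 2 of 6 catgut libraries were above the control range.

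The other genes named for their small p, none of them past an adjusted p of 0.05, were also apart in the groups (exact permutation p = 0.00216 for each). They were chosen by p in these same libraries, so the separation is not further evidence. Apold1, an early response gene of endothelial cells, had 5.33 to 17.2 FPKM against 27.7 to 92.7 FPKM (log2 fold change 2.40, SE 0.372, adjusted p = 0.0816). Ccn1, a matricellular protein of mechanically loaded tissue, had 22.6 to 48.2 FPKM against 53.2 to 133 FPKM (log2 fold change 1.56, SE 0.256, adjusted p = 0.0816). Sik1, a kinase induced by cyclic AMP, had 0.836 to 4.1 FPKM against 6.68 to 17.2 FPKM (log2 fold change 2.41, SE 0.399, adjusted p = 0.0816). Tcim, a small regulator of transcription, went from a mean of 3.95 to 13.6 FPKM (log2 fold change 1.79, adjusted p = 0.0873). RF00016, annotated as a C/D box small nucleolar RNA (chromosome 8, 44992058 to 44992143, plus strand), had means of 4.46 and 24.1 FPKM (log2 fold change 2.44, adjusted p = 0.0833). It lies within Hspa8, so that its reads cannot be told apart from those of the host transcript.

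**Figure D2:**
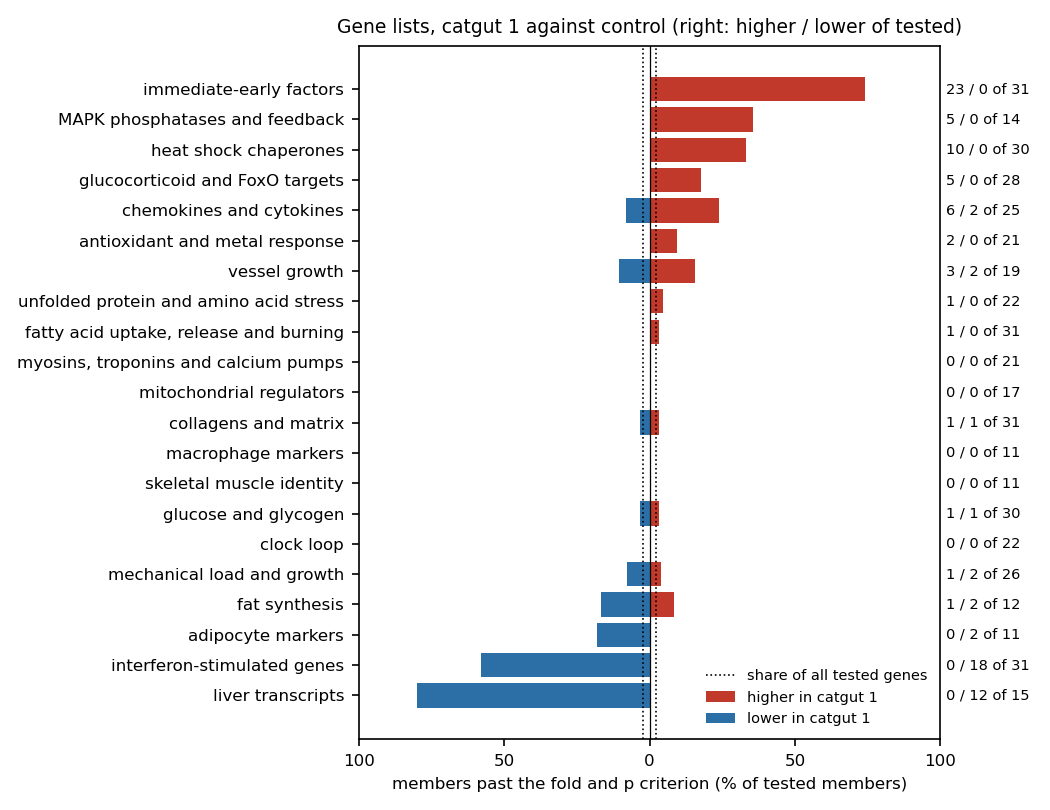
Percent of the tested members of each gene list that met the criterion, higher in catgut group 1 to the right and lower to the left, with counts at the right edge and dotted lines at the shares of all tested genes, 2.32% and 2.3%. The immediate-early list, with 23 of 31 higher, stands farthest to the right, and the liver list (12 of 15) and the interferon list (18 of 31) farthest to the left. The liver count fell to 1 without control replicate 2, and the interferon count to 5 without control replicate 4.

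The treadmill group shows how these genes stood in rats that trained and ran without a thread. Both comparisons share the libraries of catgut group 1, so the values are given side by side. Hspa1b had a mean of 292 FPKM in the treadmill group, with libraries from 13.2 to 1050, and the log2 difference of catgut group 1 from it was 0.98 (SE 0.831, adjusted p = 0.933). Arc had 13.6 FPKM in the treadmill group, with libraries from 4.76 to 25, and a difference of 0.09 (SE 0.404, adjusted p = 0.996). Dnajb1 had 36.4 FPKM, with libraries from 5.65 to 120, and a difference of 0.80 (SE 0.716, adjusted p = 0.938). For the 12 higher genes named by rule the log2 differences lay between -0.31 and 0.98, with adjusted p from 0.829 to 0.996, which does not show that the trained groups were alike. Of all tested genes, 6.93% had an unadjusted p under 0.05 and 7 genes (0.0474%) an adjusted p under 0.05 in this comparison with the treadmill group. The immediate-early list had 2 of 31 and the heat shock list 3 of 30 genes at that unadjusted threshold, near the share of all genes.

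Of the clock list, 11 of 22 genes had an unadjusted p under 0.05 against the treadmill group, 2 of them an adjusted p under 0.05, and 0 of 22 met the criterion against the control group. The clock list was not alone in this difference from the treadmill group. At the same unadjusted threshold the antioxidant list had 10 of 21 genes and the glucocorticoid and FoxO list 9 of 28. The liver list had 13 of 15, with treadmill replicate 3 at a summed FPKM of 461. Every other list had a smaller share. Per2, a repressor of the clock, differed by 2.06 on the log2 scale from the treadmill group (SE 0.271, adjusted p = 0.0188), and Cry2, its partner, by 0.52 (SE 0.0785, adjusted p = 0.0377). Dbp, an output factor of the clock, was at 65 to 121 FPKM (median 99.9) in catgut group 1, at 6.54 to 46.1 FPKM in the treadmill group, and at 7.18 to 140 FPKM (median 79.9) in the control group. The control group was split, with 7.18 and 10.3 FPKM in replicates 1 and 2 and 71.6 to 140 FPKM in the other 4. Arntl, which activates Dbp and the Per genes, was highest in the same control libraries, at 11.4 and 9.26 FPKM, against 0.804 to 3.75 FPKM in catgut group 1. The labels give no time of day for a library, and its part in any result was not tested. Without control replicates 1 and 2 the log2 fold change of Dbp went from 0.50 to -0.01 and that of Arntl from -1.09 to 0.45, and neither gene met the criterion in either case.

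**Figure D3:**
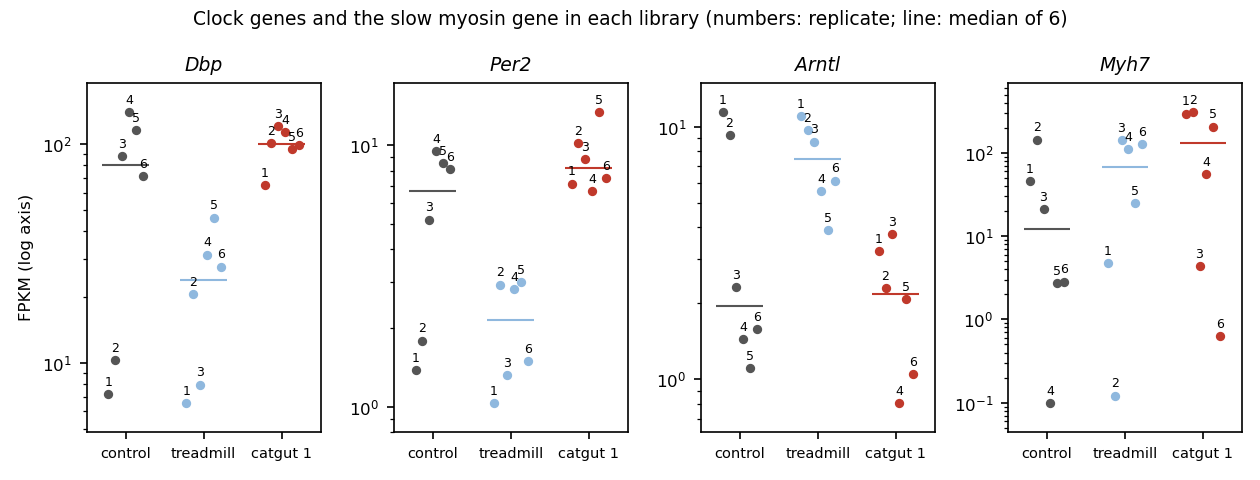
FPKM on a log axis of the clock genes Dbp, Per2 and Arntl and of the slow myosin gene Myh7 in each library of the control, treadmill and catgut 1 groups, with replicate numbers beside the points and a line at the median. Control replicates 1 and 2 lie apart from the other 4 control libraries in the 3 clock genes, and Myh7 ranges from 0.0984 to 144 FPKM in the control group and from 0.632 to 308 FPKM in catgut group 1.

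Slow-fibre genes varied widely within both groups. The myosin, troponin and calcium pump list had a median log2 fold change of 1.19, yet 0 of 21 members met the criterion. Myh7, the slow myosin heavy chain, had 0.0984 to 144 FPKM (median 12) in the control libraries and 0.632 to 308 FPKM (median 131) in catgut group 1 (log2 fold change 1.97, SE 1.45, adjusted p = 0.7). Control replicate 2 held the highest control value, and without it 8 members were higher by the criterion. Fast-fibre genes of the list, such as Tnnt3 at -0.24 and Myh1 at -0.29 on the log2 scale, did not meet it either.

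Of the 12 named genes lower in catgut group 1, 0 passed an adjusted p under 0.05. Aplnr, the receptor of the peptide apelin, had the smallest p among them. It was at 2.72 to 4.46 FPKM (median 3.33) in the control libraries and at 0.759 to 2.6 FPKM (median 0.943) in catgut group 1. The groups did not overlap, although catgut 1 replicate 6, at 2.6 FPKM, came close to the lowest control library (log2 fold change -1.53, SE 0.283, adjusted p = 0.0998; exact permutation p = 0.00216). Apln, which encodes the ligand, had means of 0.882 and 0.557 FPKM and also met the criterion (log2 fold change -0.64, adjusted p = 0.476). Nrip2, which binds nuclear receptors, was apart as well, at 0.368 to 1.29 against 0.128 to 0.361 FPKM (log2 fold change -1.40, adjusted p = 0.302). Against the treadmill group Nrip2 had a log2 difference of -1.96 (SE 0.342, adjusted p = 0.0747).

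Genes of fat synthesis moved in both directions, with 7 of 12 tested fold changes positive, 5 negative and a median log2 fold change of 0.14. Scd, the desaturase that makes oleic from stearic acid, had 0.199 to 1.53 FPKM in the control libraries and 0.133 to 0.32 FPKM in catgut group 1 (log2 fold change -1.84, SE 0.421, adjusted p = 0.245). Thrsp, a thyroid-responsive inducer of lipogenesis, had 3.95 to 17.1 FPKM against 2.19 to 6.46 FPKM, and only control replicate 2 lay within the catgut range (log2 fold change -1.41, SE 0.342, adjusted p = 0.264). Of the 12 genes of this list, Scd and Thrsp were lower and Dgat2, which makes the last step of triglyceride synthesis, was higher, with means of 13.5 and 24 FPKM. Xirp2, an actin-binding protein of muscle, had 59.9 to 108 FPKM against 36.8 to 62.2 FPKM (log2 fold change -0.65, adjusted p = 0.264), and it no longer met the criterion without control replicate 4. Tpx2, a spindle assembly factor, had means of 7.07 and 2.81 FPKM (log2 fold change -1.34, adjusted p = 0.264), Espl1, the separase, 2.67 and 1.57 FPKM, and the kinesin Kif20a 0.508 and 0.293 FPKM. The Cell cycle pathway of the KEGG column held 0 higher and 2 lower genes of 109, a share of 1.83%. The class I gene RT1-CE1 had means of 4.3 and 1.09 FPKM (log2 fold change -1.96, adjusted p = 0.295), in a family whose near-identical members can share reads. Dzip1l, a ciliary protein, had 3.28 and 1.45 FPKM. Rhox3, with 2 copies in the table, and AABR07058511 were near or at 0 in catgut group 1 and at most at 0.706 and 0.651 FPKM in the control libraries.

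Many interferon-stimulated genes were lower by the criterion, and 1 control library decided most of them. Of 31 tested genes 18 were lower by the criterion and 0 higher, and all 31 had a negative fold change with a median of -1.21. Their summed FPKM in control replicates 1 to 6 was 195, 311, 180, 1140, 190 and 162, against 169, 162, 162, 110, 162 and 203 in catgut group 1. Irf7, the factor that amplifies the interferon response, had 177 FPKM in control replicate 4 and 22 FPKM in control replicate 2, 4.8 to 7.33 FPKM in the other control libraries and 2.32 to 7.03 FPKM in catgut group 1. The count was 5 without control replicate 4, with a median of -0.36, and 1 without both control replicates 2 and 4. With limma on log2(FPKM + a pseudocount) it was 2 at a pseudocount of 1 and 7 at 0.1.

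Liver transcripts were decided by control replicate 2. Of 15 tested, 12 were lower by the criterion and 0 higher, and without that library 1 was. The summed level was also high in treadmill replicate 3, at 461. Members near 0 elsewhere could pass the filter on the mean over all 24 libraries only through such libraries. Their lower calls were thus in large part set by the filter. Albumin (Alb) had 135 FPKM in control replicate 2 and at most 0.0812 FPKM in any catgut 1 library. The PPAR pathway genes Fabp1, which binds fatty acids in liver and gut, and Apoc3, an inhibitor of lipoprotein lipase, belong to the same list. Fabp1 had 25.5 FPKM in control replicate 2, a median of 0.0765 FPKM over the control libraries and 0.0573 to 0.23 FPKM in catgut group 1. Apoc3 had 16.4 FPKM in control replicate 2, a median of 0 and, in catgut group 1, at most 0.0978 FPKM. Ttr, a carrier of thyroxine, had 16.7 FPKM in control replicate 2 and 0 in all 6 catgut libraries. Slc27a2, a very long-chain acyl-CoA synthetase, had 1.6 FPKM in the same library, a control median of 0.0405 FPKM and at most 0.166 FPKM in catgut group 1 (log2 fold change -2.43, SE 1.49, adjusted p = 0.628). None of these genes separated the groups (exact permutation p = 0.749 for Fabp1, 0.727 for Apoc3, 0.0606 for Ttr and 0.418 for Slc27a2).

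Blood and fat markers moved less evenly. Erythroid markers had 3 of 5 tested members higher and 0 lower, with Hbb, the beta globin gene, at 80.9 to 144 FPKM in the control libraries and 95.6 to 458 FPKM in catgut group 1 (log2 fold change 1.04, SE 0.395, adjusted p = 0.432). The summed level was 309 to 577 in the control group and 1680, 641, 422, 1370, 1180 and 370 in catgut 1 replicates 1 to 6, and 1 member met the criterion without replicate 1 or replicate 4. It was also 1 without control replicates 2 and 4 and without control replicates 1 and 2. Adipocyte markers had 2 of 11 members lower, Adipoq and Cidec, with summed levels of 363 to 717 and 333 to 647, which overlapped. Adipoq lost the criterion in 8 of the 12 fits without a library. Macrophage, neutrophil, lymphocyte, endothelial, fibroblast and Schwann cell markers had 0 genes higher and 0 lower. Among satellite cell markers, Myf5, a factor of muscle precursors, was higher, at 0.445 to 0.728 against 0.728 to 1.14 FPKM, where the 2 groups touch at the precision printed (log2 fold change 0.70, adjusted p = 0.327; exact permutation p = 0.00216), while Chodl was lower and Pax7 did not meet the criterion.

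**Figure D4:**
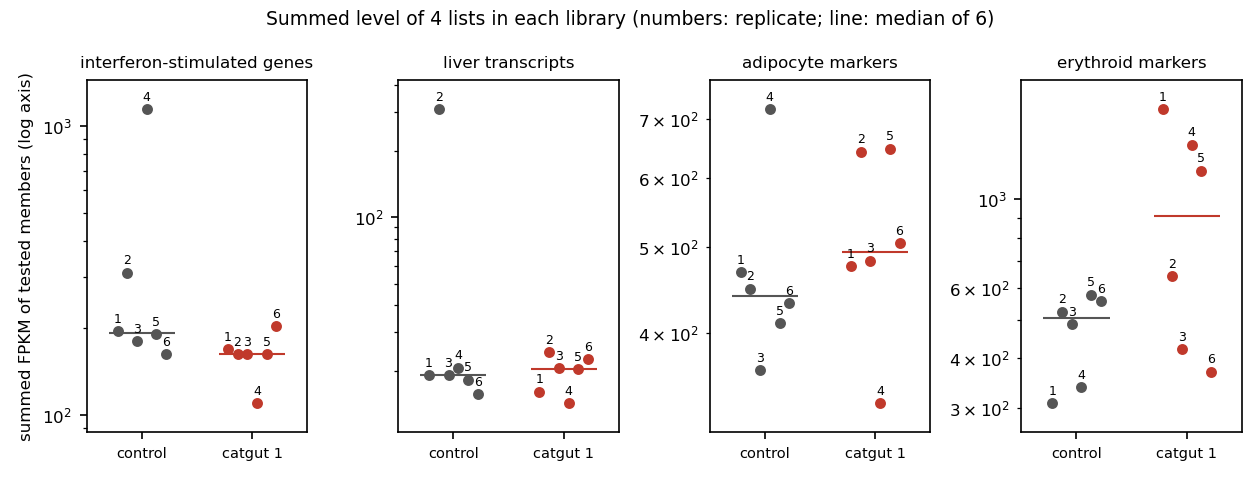
Summed FPKM, on a log axis, of the tested interferon-stimulated genes, liver transcripts, adipocyte markers and erythroid markers in each control and catgut 1 library, with replicate numbers beside the points and a line at the median. Control replicate 4 stands alone at 1140 for interferon genes and control replicate 2 at 310 for liver transcripts, and the erythroid sum of catgut group 1 spreads from 370 to 1680.

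The counts of the metabolic lists given here were near the shares of all tested genes, 2.32% higher and 2.3% lower by the criterion. Of 31 tested genes of fatty acid uptake, release and burning, Gpihbp1, which anchors lipoprotein lipase to capillaries, was higher with means of 21.6 and 33.7 FPKM (log2 fold change 0.64, adjusted p = 0.405), and 0 were lower. Gpihbp1 no longer met the criterion without control replicate 1 or without catgut 1 replicate 2 or 5. Lpl, lipoprotein lipase itself, had 30.6 to 89.1 FPKM (median 36.7) in the control libraries and 37 to 144 FPKM (median 61.3) in catgut group 1 and did not meet the criterion (log2 fold change 0.76, SE 0.370, adjusted p = 0.534; exact permutation p = 0.0909). Without control replicate 2, which held the 89.1 FPKM, the log2 fold change was 1.10 and Lpl met the criterion, as it did without catgut 1 replicate 3, 4 or 6. The fasting-responsive Pdk4, Ucp3 and Angptl4 had log2 fold changes of -0.51, -1.23 and -1.27 and did not meet it, and all 3 turned positive without control replicates 1 and 2. Of 17 regulators of mitochondria 0 met the criterion, with Ppargc1a at 2.14 ± 0.347 and 2.49 ± 0.373 FPKM (log2 fold change 0.23, SE 0.142, adjusted p = 0.634). In the glucose and glycogen list 1 of 30 genes was higher, Arrdc4, an arrestin of glucose uptake, and 1 lower, Pfkfb3, an activator of glycolysis, which kept the criterion in 6 of the 12 fits without a library.

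Among genes of glucocorticoid and FoxO signalling, 5 of 28 were higher and 0 lower. Of all tested genes 2.32% were higher and 2.3% lower, which also applies to the lists that follow. Cebpd, a factor of acute stress, had 13.2 to 41.8 FPKM in the control libraries and 26.3 to 78.1 FPKM in catgut group 1 (log2 fold change 1.16, adjusted p = 0.303). The others were Cebpb, the kinase Sgk1, the insulin receptor substrate Irs2 and the metallothionein Mt2A. The ubiquitin ligases of muscle atrophy, Trim63 and Fbxo32, had log2 fold changes of 0.17 and -0.10 and did not meet the criterion. Chemokines and cytokines had 6 of 25 genes higher, among them the neutrophil attractant Cxcl1 with means of 1.03 and 4.17 FPKM and the monocyte attractants Ccl2 and Ccl7 with 0.846 and 2.07 and with 0.402 and 1.48 FPKM. Cxcl10 and Cxcl13 met the criterion as lower, with 9.82 and 3.3 FPKM in control replicate 4. Without that library the log2 fold change of the interferon-induced Cxcl10 went from -2.57 to -0.05 and its call was lost, and Cxcl13 was not refitted. Of the vessel growth list Thbs1, Pgf and Adamts1 were higher, 3 of 19, and Apln and Aplnr lower. The mechanical load list had 1 of 26 higher and 2 lower, and the antioxidant list 2 of 21 higher (Hmox1 and Mt2A) and 0 lower. Counts as small as these were not tested against the shares of all tested genes. Hmox1 no longer met the criterion without control replicate 1 or 2 or without catgut 1 replicate 2 or 5.

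**Figure D5:**
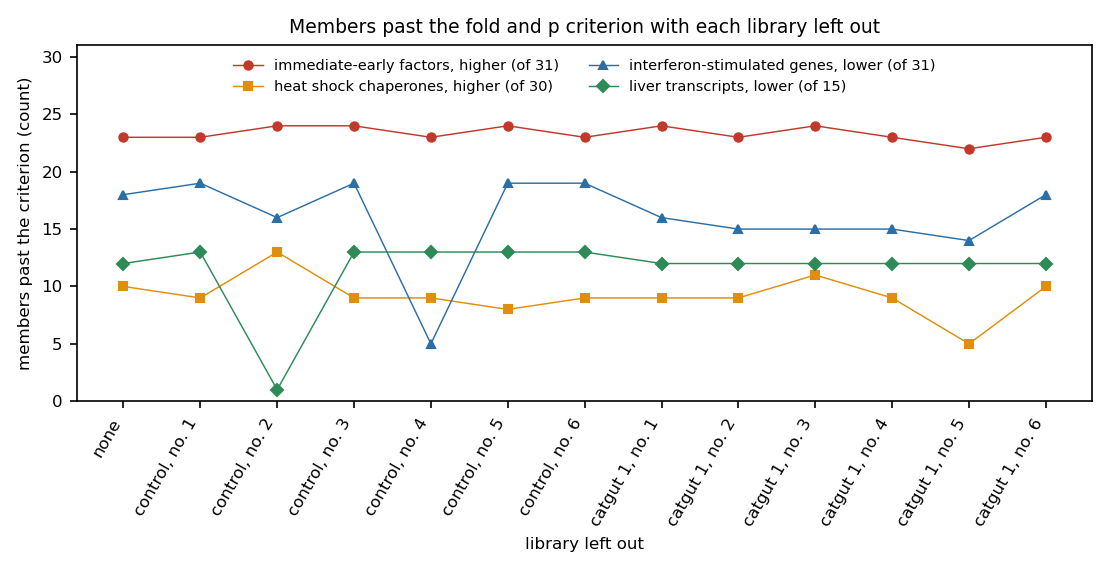
Number of members past the criterion in 4 gene lists with no library left out and with each of the 12 libraries left out in turn. The immediate-early count stays between 22 and 24, the heat shock count drops to 5 without catgut 1 replicate 5, the interferon count to 5 without control replicate 4 and the liver count to 1 without control replicate 2.

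The KEGG column assigned a pathway to 5307 of the tested genes, and 270 of these met the criterion. Of 302 pathways with at least 10 tested genes, 12 held a gene at an adjusted p under 0.05 and 54 held 0 genes past the criterion. Hspa1b was in 11 of those 12 pathways, and Arc stood in the twelfth, Amphetamine addiction. The pathways with the largest shares past the criterion were African trypanosomiasis with 5 higher and 2 lower of 24 (29.2%), Complement and coagulation cascades with 6 higher and 10 lower of 56 (28.6%) and Malaria with 7 higher and 2 lower of 36 (25%). African trypanosomiasis and Malaria both held the globin genes Hbb and Hba-a2 among their higher genes. The lower genes of Complement and coagulation cascades included the liver products Fga, Fgb, Fgg and Serpina1. Without control replicates 2 and 4 African trypanosomiasis had 1 higher and 0 lower genes, Complement and coagulation cascades 7 and 2, and Malaria 3 and 0.

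Of all tested genes, 4.62% met the criterion, 2.32% higher and 2.3% lower. Some signalling pathways held more higher than lower genes. AMPK signaling, with 1 higher and 4 lower of 113 (4.42%), was near the share of all tested genes. IL-17 signaling had 11 of 63 tested genes higher and 1 lower, MAPK signaling 14 of 242 higher and 4 lower, and TNF signaling 9 of 93 higher and 7 lower. Without control replicates 2 and 4 these were 12 and 0, 17 and 2, and 12 and 1. Protein processing in endoplasmic reticulum, where KEGG also files the cytosolic chaperones, had 10 of 152 higher and 1 lower, and ECM-receptor interaction 6 of 59 higher and 0 lower. The PPAR signaling pathway had 0 of 65 higher and 6 lower, namely Adipoq, Apoa2, Apoa5, Apoc3, Fabp1 and Scd, and without control replicates 2 and 4 it had 3 higher and 2 lower. Circadian rhythm (29 genes), Citrate cycle (28) and Fatty acid degradation (38) had 0 genes past the criterion. Oxidative phosphorylation had 2 of 126 higher (1.59%) and Ribosome 2 of 165 lower (1.21%), under the share of all tested genes. Without control replicates 2 and 4 Circadian rhythm had 2 genes higher, Ribosome 2 higher and 2 lower, and ECM-receptor interaction 4 higher.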

How the data were processed

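Paired-end poly(A) RNA sequencing was done by the authors on quadriceps muscle, although the extraction protocol in the labels mentions adipose tissue. The deposited table lists, for each gene and library, a whole-number count, used as listed, and FPKM, which the authors scaled to transcript length and mapped fragments. The submitters' processing notes name HISAT2 2.0 and StringTie 1.3.0 without a role, and the build of the coordinates is not given in the sources used here. The commonest count above 0 was 4, so 12 counts were taken as the floor of detection, equal to 3 fragments; floors cover counting error only.

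Libraries were grouped by their labels, 1 rat each. Of 24 libraries, the 6 of catgut group 1 and the 6 of the control group were fitted alone. The genes whose FPKM averaged 0.1 or more across all 24 libraries were normalized by TMM and tested with edgeR 4.0.16 in R 4.3.3 (two-sided quasi-likelihood test, Benjamini-Hochberg adjustment over 14772 genes). The SE of a log2 fold change came from the fold change and its F statistic. The study's criterion asks for an unadjusted p under 0.05 from this fit and for a ratio of mean FPKM above 1.5 or below 1/1.5; "higher" and "lower" of lists refer to it, and its p is not adjusted for the number of genes. Single genes were also compared by a two-sided exact permutation test of log2(FPKM + 1) over 924 arrangements, of which 0.00216 is the smallest possible p. For genes named by smallest p it is not independent evidence, since the same libraries chose them. Catgut group 1 and the treadmill group were fitted in the same way.

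Named genes are the 3 past an adjusted p of 0.05, then genes with a symbol that met the criterion by smallest p up to 12 higher and 12 lower, the genes the study names, and list members. The members and lists were chosen with earlier results of these data known. Alternatives were other filters, RLE factors, DESeq2 1.42.0, limma 3.58.1 on log2(FPKM + 1) or log2(FPKM + 0.1), counts divided by 4, a fit of all groups, robust fitting, a replicate block, a Y-linked covariate and each library left out. Fits without control replicates 2 and 4, or 1 and 2, were added after the data were seen. KEGG pathways came from the table, each counted once per gene. Scripts were tested on simulated data. Figures were drawn with matplotlib 3.10.9.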

Additional observations from a re-analysis of the deposited data

Results flagged for a closer look

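In 264 groups of 6 values examined (the named genes, list sums and total counts of both groups), 32 or 12.1% held a highest or lowest library that lay far from the other 5 relative to the range. Chance gives about 1 in 20 only for independent groups of normally distributed values. The groups here come from the same libraries, and some genes were near the floor of detection in most libraries. The share of 12.1% therefore cannot be judged against that rate. The libraries concerned were mostly control replicates 2 and 4.

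Control replicate 2 stood apart in liver products, with Alb at 135, Apoa2 at 17.2, Apoc3 at 16.4, Fabp1 at 25.5, Ttr at 16.7 and Slc27a2 at 1.6 FPKM and a liver sum of 310. It also had the highest control levels of Lpl (89.1 FPKM), Nr4a2 (2.35 FPKM) and Cxcl1 (2.7 FPKM) and the lowest of Thrsp (3.95 FPKM). Control replicate 4 stood apart in the interferon sum (1140), Ifi27 (286 FPKM), Oas2 (3.2 FPKM) and Cxcl10 (9.82 FPKM). The same library had the highest control values of Klf6 (3.68 FPKM), Thbs1 (3.2 FPKM), the endothelial marker sum (141) and the single tested kidney and gut transcript (1.92 FPKM), and the lowest total count of the group, 61682752. Control replicate 3 was highest for LOC108348108 (3.76 FPKM) and Cxcl2 (0.0577 FPKM), and control replicate 1 was lowest for Gpihbp1 (12.8 FPKM).

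In catgut group 1, replicate 5 was highest for Hsph1 (70.4 FPKM), RF00016 (49.7 FPKM), Errfi1 (75.5 FPKM) and Cxcl2 (2.55 FPKM). Replicate 4 was lowest for Mt2A (7.27 FPKM) and for the interferon sum (110). Replicate 6 had the highest Aplnr (2.6 FPKM), replicate 2 the highest Apoc3 (0.0978 FPKM) and replicate 3 the highest AABR07058511 (0.0378 FPKM), the last 2 being close to the floor of detection.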

How the results depend on the processing

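The number of genes at an adjusted p under 0.05 was 3 and became 162 with DESeq2, 8 with limma on log2(FPKM + 1), 20 with all 4 groups in 1 fit and 0 without control replicates 1 and 2 (1520 at an unadjusted p under 0.05). It lay between 0 (control replicate 5 left out) and 12 (catgut 1 replicate 6 left out) with each library left out in turn. The number past the criterion, 682, became 1181 with no filter on low values and 362 at a mean of at least 1 FPKM, and lay between 577 (catgut 1 replicate 5 left out) and 802 (control replicate 2 left out). With the replicate number as a block, 1 gene passed the adjusted threshold and 528 the criterion. Same-numbered libraries had deviations correlated at 0 to 0.21 across genes, over 0.1 for 2 of 6 numbers, so the numbers were not taken as pairs. With this block 3 interferon-stimulated genes and 0 erythroid markers met the criterion, and Fos and Lpl came to meet it.

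For 101 named genes, 2329 of 2505 combinations of gene and alternative kept direction and side of the criterion, 134 fell short of it, 30 came to meet it and 12 changed sign. With each library left out, the log2 fold change of Fabp1 lay between -5.22 and 0.44 and that of Apoc3 between -9.99 and 0.06, the upper values being those without control replicate 2; without control replicates 2 and 4, Fabp1 was at 0.39, Slc27a2 at 1.48 and Isg15 at 0.14; without control replicates 1 and 2, Fabp1 was at 0.38, Apoc3 at 2.79, Angptl4 at 0.26, Pdk4 at 0.23, Arntl at 0.45, Ucp3 at 0.32, Dbp at -0.01 and the median of the liver list at 0.32. Fitted fold changes of Fabp1, Apoc3 and Slc27a2 rest largely on control replicate 2, set against counts near the floor in most other libraries. Every alternative and left-out fit kept Hspa1b, Arc and Dnajb1 higher and past the criterion. The cause of these shifts was not tested beyond the library that was left out. Depth limits Rhox3, AABR07058511 and other genes with counts near 12, whose fold is not given.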
